A study of Mus musculus with 18 samples.

Results

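Naive CD8 T cells cultured for 20 h with IL-7 were compared with naive CD8 T cells taken straight from the sort, ex vivo. The comparison rests on 4 of the 18 Affymetrix mouse arrays of the study, chosen by their titles: 2 arrays of naive cells in IL-7 and 2 arrays of naive cells ex vivo. All cells came from F5 mice, which carry a transgenic T cell receptor on CD8 T cells, with the genotype given as C57Bl/6, and were purified from spleen by flow cytometry. Cultured naive cells received IL-7 (10 ng/mL), and ex vivo cells received no culture and no cytokine. The remaining 14 arrays were of naive cells in IL-7 with IL-4 at 20 ng/mL (2 arrays) and of memory cells, called TIM in the labels, from F5 mice given the NP68 peptide by 2 immunisations and taken at day 45. For memory cells there were 4 arrays ex vivo and 2 each after 20 h in medium, in IL-7, in IL-4 and in both cytokines. The label for cell type names the naive samples "Naïve CD8 memory cells", and the titles, which say naive, were followed here.

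IL-7 is a cytokine made by stromal cells of lymphoid organs that keeps naive T cells alive between encounters with antigen. Its receptor pairs the IL-7 receptor alpha chain, encoded by Il7r, with the common gamma chain shared by the receptors of IL-2, IL-4 and IL-15, and signals through the kinases JAK1 and JAK3 to the transcription factor STAT5 and to the PI3 kinase and AKT pathway. STAT5 induces the survival protein BCL2 and, as negative feedback, the SOCS family inhibitors, and IL-7 signalling lowers transcription of Il7r itself.

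No array of naive cells in medium alone was analysed here, so the effects of 20 h of culture and of IL-7 cannot be told apart in naive cells. Memory cells in medium give 20 h of culture without cytokine, but their 2 arrays differ. The array titled as replicate 2 of memory cells in medium correlated with ex vivo memory array 2 at r = 0.995 and with the other medium array at r = 0.956 over the genes tested, and it carried ex vivo levels of immediate early genes. It belongs to neither naive group, but all 18 arrays set the spread used in the tests, so the counts below are given with and without it. No label says that the cultured arrays came from separate animals or cultures, so the p-values reflect only how far the present arrays scatter, which may be technical. In these bulk RNA samples, fewer cells of a kind and less RNA per cell cannot be told apart.

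The 4 arrays matched the label of CD8 T cells. The summed level of 7 CD8 T cell markers was 15.2 and 14.9 on the ex vivo arrays and 15.2 and 15.1 on the IL-7 arrays (log2 of the sum of linear values). Summed markers of memory CD8 T cells lay between 11.1 and 11.8 on the naive arrays and between 13.9 and 14.5 on the ex vivo memory arrays. None of the tested markers of B cells (6), myeloid cells (7), CD4 T cells (3), red cell precursors (4), platelets (4), memory CD8 T cells (11) or CD8 T cells (7) passed the test, 1 of 3 NK cell markers fell (Fcgr3), and of 9 genes of cells with MHC class II H2-DMa rose and H2-Oa fell. By limma's unadjusted p below 0.05, 3 CD8 T cell markers and 1 each of the myeloid, platelet and memory markers passed, and 27.2% of all genes tested did. Without memory in medium, replicate 2, some CD8 T cell, memory and myeloid markers passed the adjusted test. Fcgr3, H2-DMa and H2-Oa each missed the test when some single arrays were left out (adjusted p up to 0.185). At least 1 marker of the B cell, myeloid, CD4 T cell, NK cell, red cell and platelet lists lay below the filter value of 4.06 on all 4 arrays. The 3' minus 5' difference of the Gapdh array control, a sign of RNA length, was 2.69 and 2.56 ex vivo and 3.05 and 2.67 in IL-7, and that of Actb was 1.95 and 2.06 ex vivo and 1.64 and 1.63 in IL-7 (log2). The part of RNA length in the results was not tested.

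Of 13770 genes tested, 964 rose and 798 fell in IL-7 at an adjusted p below 0.05 (limma's moderated test, Benjamini-Hochberg adjustment), which is 12.8% of genes, 7% upward and 5.8% downward. The change passed 1 on the log2 scale, a doubling or halving, for 579 of the genes that rose and 513 of those that fell. The largest falls were larger than the largest rises, running to -6.07 (Fosl2) against 4.64 (Etfbkmt). In all 1762 genes that passed, the values of both IL-7 arrays lay on one side of both ex vivo arrays, a pattern that 58% of all genes tested showed. The 2 ex vivo arrays differed from each other with an SD of 0.376 over genes and the 2 IL-7 arrays with an SD of 0.371, while pairs of arrays from different groups differed with an SD between 0.658 and 0.737. The median change over all genes was 0.07, and centring each array on the median of the genes tested moved it to -0.11 and the split from 964 up and 798 down to 669 up and 1080 down. A list median between 0 and 0.18 therefore changes sign under that centring. No named gene that passed the test changed direction under any setting. Leaving out arrays could not change a direction, since the groups do not overlap in these genes.

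The precision is that of 2 arrays a group. Without memory in medium, replicate 2, the count was 2772 genes, 1678 up and 1094 down, which included all 1762. The 4 arrays were also left out singly, always in the order of ex vivo arrays 1 and 2 and then IL-7 arrays 1 and 2, which left 796, 353, 694 and 258 genes past the test. A group is then a single array that is assumed to vary like the others. These fits kept memory in medium, replicate 2, so its distance from the other medium array also widened the spread they used. Where 4 counts follow a list below, they say in this order how many of its called members passed.

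**Figure D1:**
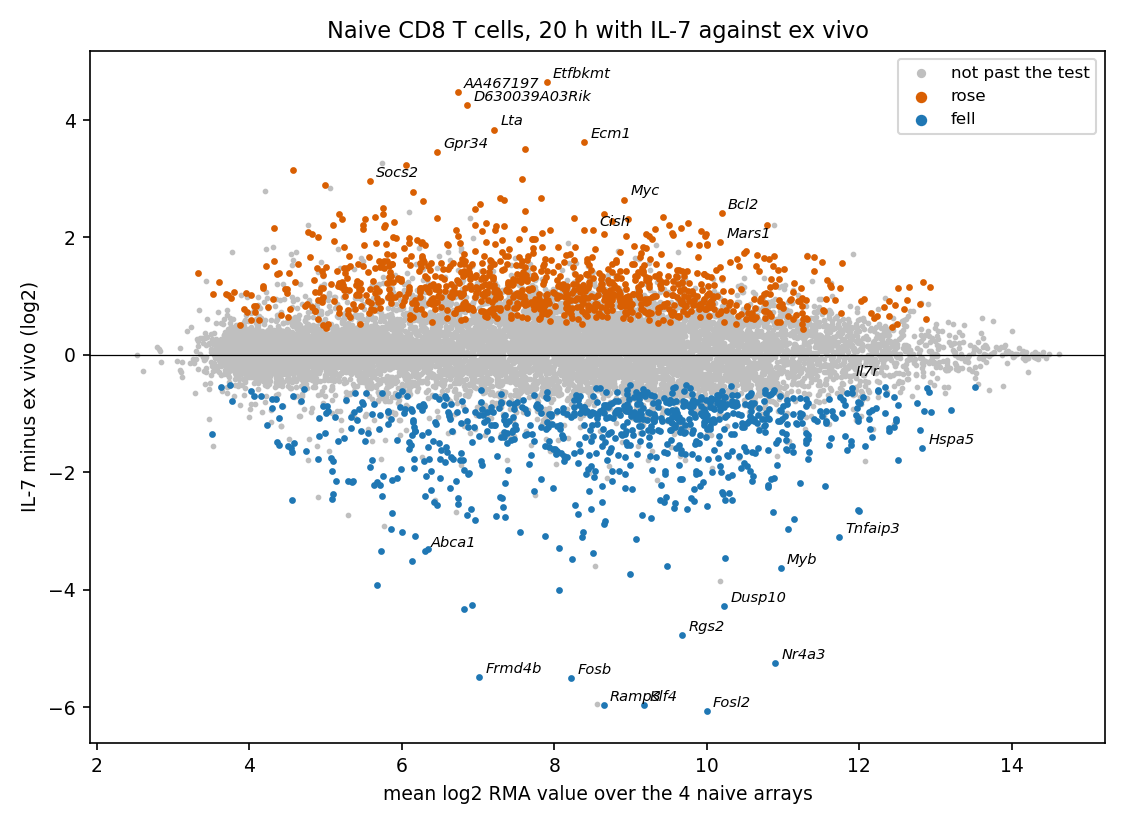
Change of each of 13770 genes between naive cells in IL-7 and naive cells ex vivo (vertical axis, log2, difference of 2-array means) against its mean log2 RMA value over the 4 arrays (horizontal axis). Orange points are the 964 genes that rose, blue points the 798 that fell and grey points the genes that did not pass the test; Fosl2, Ramp3 and Klf4 lie lowest, and Etfbkmt lies highest at 4.64.

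Targets and feedback genes of STAT5 moved in both directions. Of 18 members tested, 8 rose, 4 fell and 6 did not pass the test, with a median change of 0.23 against 0.07 over all genes tested. Lta, which encodes the cytokine lymphotoxin alpha, had values of 5.29 and 5.30 on the ex vivo arrays and 9.13 and 9.14 on the IL-7 arrays (log2 RMA values, as for all array values below). It rose by 3.84 ± 0.37 (log2 change ± SE from the fit, n = 2 arrays a group; adjusted p = 0.000101). The replicates of Lta nearly coincided in both groups. Among the SOCS family inhibitors, Socs2 had values of 4.05 and 4.15 ex vivo and 7.02 and 7.11 in IL-7, a rise of 2.96 ± 0.45 (adjusted p = 0.00221). Cish, an inhibitor of the same family that STAT5 induces directly, had values of 7.05 and 7.84 ex vivo and 9.14 and 10.00 in IL-7, and its rise of 2.13 ± 0.60 passed with an adjusted p of 0.0332. Socs1 rose by 1.05 ± 0.30 from values of 6.35 and 6.01.

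Survival and growth genes of the same list rose too. Bcl2, the inhibitor of mitochondrial cell death that IL-7 maintains in T cells, had values of 9.26 and 8.72 ex vivo and 11.56 and 11.25 in IL-7. It rose by 2.42 ± 0.38 (adjusted p = 0.0024). Myc, the transcription factor of cell growth, had values of 7.55 and 7.64 ex vivo and 10.24 on both IL-7 arrays, a rise of 2.64 ± 0.37 (adjusted p = 0.00155). Il2ra, the alpha chain of the IL-2 receptor, had values of 3.42 and 3.67 ex vivo but 5.30 and 7.58 in IL-7, so its rise of 2.90 ± 0.88 (adjusted p = 0.0438) came with a wide gap between the IL-7 arrays. Osm, the cytokine oncostatin M, completed the 8 members that rose. Pim1, a kinase that STAT5 induces, was high in all 4 arrays, with 13.01 and 12.96 ex vivo and 13.07 and 13.11 in IL-7.

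The 4 members that fell were Dusp5, Bcl6, Gfi1 and Pim3. Bcl6, a transcriptional repressor whose gene STAT5 is known to silence, had values of 7.77 and 8.66 ex vivo and 5.18 and 5.80 in IL-7, a fall of -2.73 ± 0.56 (adjusted p = 0.00881). Gfi1, a repressor that is known to act on the Il7r gene, had values of 10.45 and 10.09 ex vivo and 7.74 and 8.86 in IL-7 (-1.97 ± 0.31, adjusted p = 0.00243). Dusp5, an ERK phosphatase, changed by -3.60 ± 0.90, and Pim3, a kinase related to Pim1, by -1.40 ± 0.38. Of the 12 members past the test, 7, 6, 7 and 7 passed with single arrays left out, and Socs2, Osm, Lta, Gfi1, Bcl2 and Myc passed each time. For the other 6, Cish and Il2ra among them, the adjusted p without an array ranged up to 0.365. Socs2 has 6 probe sets on the array, and their changes ran from -0.25 to 2.96.

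**Figure D2:**
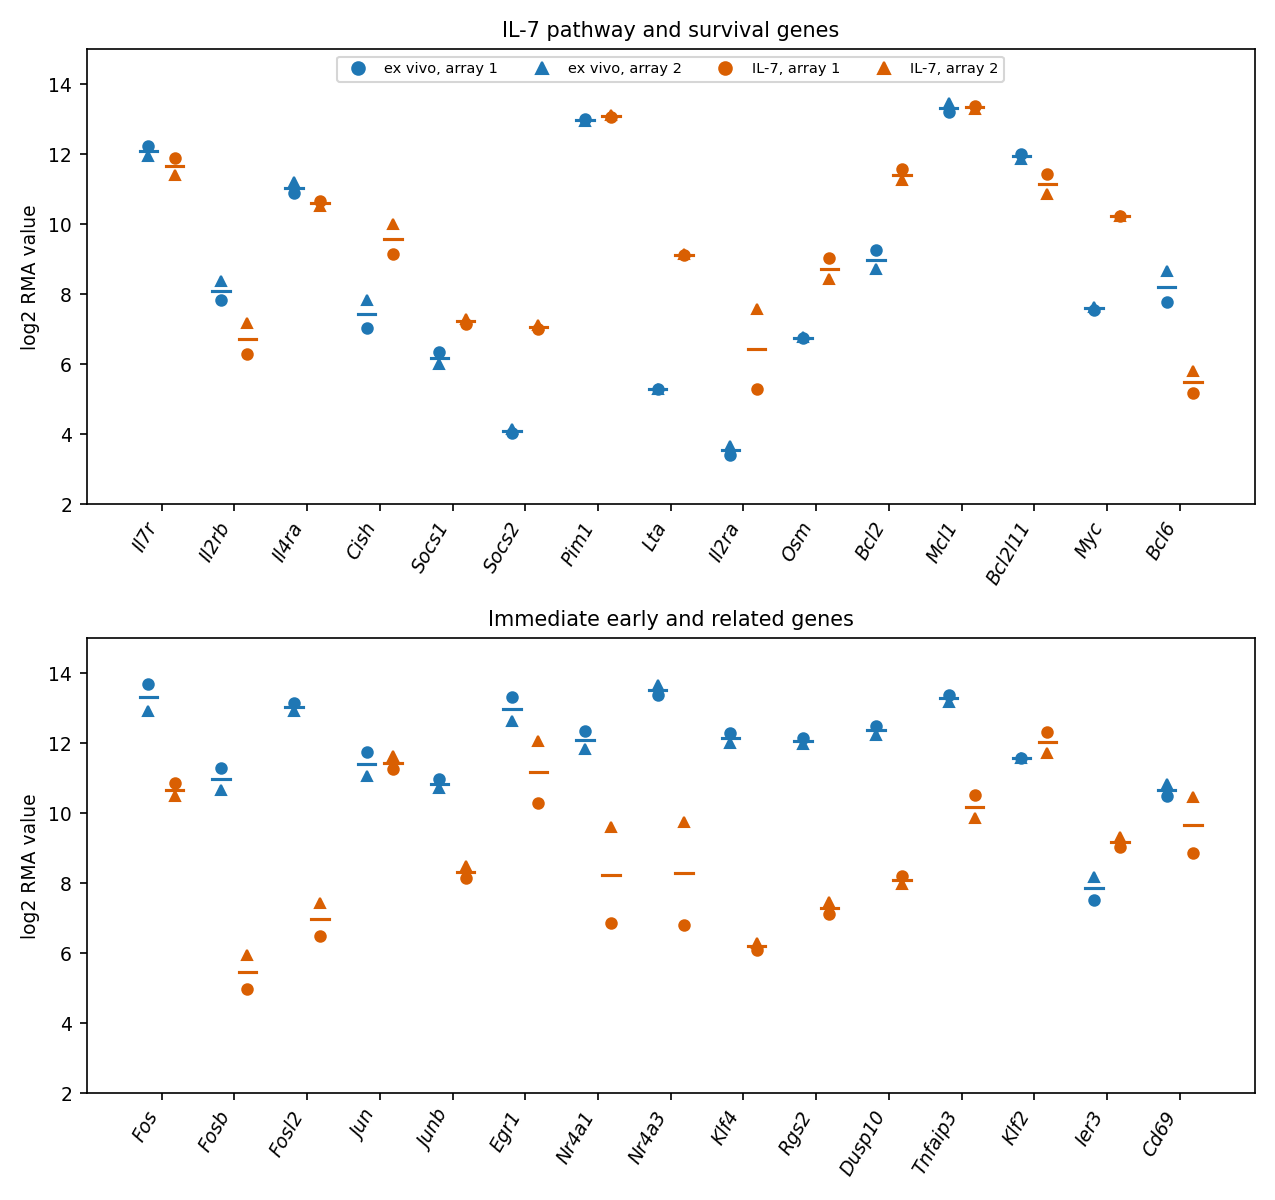
Log2 RMA values of 30 genes on the 2 ex vivo arrays (blue) and the 2 IL-7 arrays (orange), with circles for replicate 1, triangles for replicate 2 and lines for group means. In the upper panel Lta, Myc and Socs2 replicates nearly coincide while the Il2ra arrays in IL-7 lie at 5.30 and 7.58; in the lower panel Fosl2, Fosb and Klf4 fall from above 10 to below 8, and Nr4a1 and Egr1 are higher on IL-7 array 2 than on IL-7 array 1.

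Promoters of 3 of these genes are shown because each holds the palindrome TTCNNNGAA, the letters a STAT dimer is known to bind, more than once near a RefSeq start, and because their transcripts moved in both directions. The stretches are from the RefSeq table of build GRCm38.p6, printed 5' to 3' on the gene's strand, with matches to TTCNNNGAA in capitals. The Cish stretch (chr9:107296479-107296678, plus strand) runs from 180 bases before the start to 20 after it. Those of Lta (chr17:35205352-35205531, minus strand) and Bcl6 (chr16:23981284-23981463, minus strand) hold the 180 bases before the start.
Cish: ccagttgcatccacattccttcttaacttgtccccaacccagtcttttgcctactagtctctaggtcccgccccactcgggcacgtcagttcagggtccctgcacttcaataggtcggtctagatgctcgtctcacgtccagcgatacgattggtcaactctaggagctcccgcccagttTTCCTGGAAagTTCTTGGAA
Lta: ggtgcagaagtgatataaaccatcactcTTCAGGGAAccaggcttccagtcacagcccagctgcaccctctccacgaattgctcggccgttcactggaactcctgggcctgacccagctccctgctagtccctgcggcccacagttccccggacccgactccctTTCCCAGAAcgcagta
Bcl6: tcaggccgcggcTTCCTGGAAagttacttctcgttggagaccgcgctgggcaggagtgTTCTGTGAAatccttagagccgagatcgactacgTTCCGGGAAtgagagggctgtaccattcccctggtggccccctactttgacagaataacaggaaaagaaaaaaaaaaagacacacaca
Counted from the first transcribed base as 1 and the base before it as -1, the 2 matches of Cish begin at 1 and 12, those of Lta at -152 and -16, and the 3 of Bcl6 at -168, -122 and -88. Searched on both strands from 250 bases before to 50 after each start, TTCNNNGAA was held by 5 of 17 promoters of the STAT5 list (29.4%), 6.85% of the 14081 promoters of all genes tested, 7.69% of promoters of genes that rose and 6.68% of those of genes that fell. It was also held by 24.2% of promoters of the interferon-stimulated list, 17.9% of the quiescence and FOXO list and 16.7% of the tRNA synthetase list. The shares were 11.1% for ribosome biogenesis, 10.8% for immediate early, 6.9% for glycolysis and 5.88% for cholesterol genes. A match is a run of letters and not a measured binding site.

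Parts of the IL-7 receptor pathway mostly did not pass the test, with 6.67% past it against 12.8% of all genes tested. Of 15 signalling parts tested, 0 rose and 1 fell (Inpp5d, which encodes the lipid phosphatase SHIP1, -0.77 ± 0.20, adjusted p = 0.0242), with a median of -0.33. By limma without memory in medium, replicate 2, 4 fell and 0 rose. Inpp5d did not pass with any single array left out (adjusted p up to 0.189). Il7r had values of 12.25 and 11.94 ex vivo and 11.90 and 11.41 in IL-7, a change of -0.44 ± 0.35 that did not pass the test (adjusted p = 0.477). Il2rb, the beta chain shared by the IL-2 and IL-15 receptors, changed by -1.38 ± 0.53 (adjusted p = 0.107), and Il4ra by -0.45 ± 0.60 (adjusted p = 0.705). Il2rb passed without memory in medium, replicate 2, while Il7r and Il4ra did not. The common gamma chain gene, Il2rg, was not analysed here.

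Of 25 cytokine receptor chains tested, 2 rose and 5 fell. Besides Il2ra, Il10ra rose from 5.08 and 5.51 to 7.62 and 7.63 (2.32 ± 0.32, adjusted p = 0.00138). Il10ra encodes the ligand-binding chain of the IL-10 receptor. The IL-21 receptor gene Il21r fell from 11 and 11.56 to 8.54 and 8.89. Tnfrsf1b (TNF receptor 2) changed by -2.11, Il12rb1 by -1.53, Il6st (the gp130 chain) by -1.45 and Tgfbr2 by -0.59. A further probe set of Tnfrsf1b changed by 0.01, and those of Il6st by between -1.60 and -0.04. With single arrays left out, 2, 3, 4 and 1 of these 7 passed, Il10ra each time, and adjusted p-values of the others reached 0.365.

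Among 14 BCL2 family genes tested, Bcl2 and Bid, a promoter of cell death, rose, and 0 fell. The share past the test was 14.3%, near the 12.8% of all genes tested. Bid rose by 1.02 ± 0.31 (adjusted p = 0.0441) and did not pass with any single array left out, with an adjusted p of up to 0.255. Mcl1, a survival protein gene, had values of 13.22 and 13.45 ex vivo and 13.39 and 13.30 in IL-7. Bcl2l11, which encodes the death-promoting protein BIM, had values of 12.01 and 11.86 ex vivo and 11.42 and 10.86 in IL-7 (-0.79 ± 0.46, adjusted p = 0.299). Of 8 GIMAP genes, GTPases of lymphocyte survival, Gimap7 (1.35), Gimap3 (1.14) and Gimap1 (0.83) rose and Gimap6 (-1.01 ± 0.17, adjusted p = 0.00392) fell. Gimap6 passed without each array in turn; Gimap1, Gimap3 and Gimap7 did not (adjusted p up to 0.255), and a further probe set of Gimap7 changed by -0.51.

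The 15 largest rises were Etfbkmt, AA467197, D630039A03Rik, Lta, Ecm1, 5830468F06Rik, Gpr34, Myo6, Bbs12, Pgpep1l, Socs2, Il2ra, Adamtsl4, Angptl6 and Drc1, with changes from 4.64 down to 2.67. Etfbkmt, a methyltransferase of mitochondrial electron transfer flavoprotein, had values of 5.99 and 5.17 ex vivo and 10.41 and 10.03 in IL-7. Ecm1, an extracellular matrix protein gene, had 6.61 and 6.56 ex vivo and 10.11 and 10.31 in IL-7, a rise of 3.62 ± 0.25 (adjusted p = 3.95e-06). D630039A03Rik had the smallest adjusted p of these genes, 1.8e-06, with values of 4.83 and 4.63 ex vivo and 9.09 and 8.88 in IL-7. Gpr34, a lysophospholipid receptor, rose by 3.45 ± 0.34, and Myo6, an unconventional myosin, by 3.24 ± 0.33. Bbs12, a chaperonin-like ciliary protein gene, had 2.88 and 3.12 ex vivo, below the filter value of 4.06, and 5.81 and 6.47 in IL-7. Of the 15, 10 passed with each single array left out; Etfbkmt, Bbs12, Il2ra, Angptl6 and Drc1 did not, with adjusted p-values up to 0.365. Over all genes, 41 of those that rose had an ex vivo mean at or below that value.

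Among genes of protein synthesis, many tRNA synthetases rose. Of 19 tRNA synthetases tested, which charge transfer RNAs with amino acids, 9 rose and 0 fell, with a median of 0.71. Mars1, the methionyl enzyme, had values of 9.35 and 9.08 ex vivo and 10.89 and 11.40 in IL-7, a rise of 1.93 ± 0.22 (adjusted p = 0.00046). Sars, the seryl enzyme, had 10.26 and 10.13 ex vivo and 11.17 and 11.81 in IL-7, a rise of 1.30 ± 0.18 (adjusted p = 0.00155). Wars (1.05), Yars (0.96), Iars (0.84) and Vars (0.75) followed. With single arrays left out, 5, 2, 8 and 2 of the 9 passed, Mars1 and Sars each time, and the adjusted p of the others reached 0.271.

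Amino acid and nucleotide supply showed fewer calls than the tRNA synthetases. The shares past the test were 16% and 22.7% against 47.4%, and 12.8% over all genes tested. Of 25 amino acid transporters and targets of the stress factor ATF4, 3 rose and 1 fell, with a median of 0.52. Trib3, a pseudokinase induced by ATF4, had values of 7.80 and 8.71 ex vivo and 10.04 and 11.17 in IL-7 (2.35 ± 0.53, adjusted p = 0.0138). Aldh18a1 of proline synthesis rose by 1.39 and Shmt2, the mitochondrial serine enzyme of one-carbon supply, by 1.38 ± 0.31. The glutamine transporter gene Slc38a2 fell by 0.94. Of 22 genes of the nucleotide and one-carbon list, which also holds polyamine genes such as Srm and Odc1, 5 rose and 0 fell. The median was 0.24. The 5 were Srm (spermidine synthase, 1.65), Shmt2, Adsl (0.70), Dhodh (0.70) and Gart (0.65), the last 3 in purine or pyrimidine synthesis. The 4 counts were 2, 1, 3 and 0 of the 4 transport and ATF4 genes and 1, 0, 3 and 0 of these 5, and their adjusted p reached 0.33.

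Genes of ribosome production mostly did not pass the test. Of 39 genes of ribosome biogenesis, a list that includes Myc, 4 rose and 0 fell, a share of 10.3% against 7% upward over all genes, and the median was 0.10. The other 3 were Dkc1 (1.42 ± 0.28), Polr1b (0.87 ± 0.22), a subunit of RNA polymerase I, and Wdr3 (0.53 ± 0.16). Only Myc passed without each array in turn, and the adjusted p of Dkc1, Polr1b and Wdr3 reached 0.218. Of 42 cytosolic ribosomal protein genes, 0 rose and 0 fell by limma, with changes between -0.20 and 0.38. Without memory in medium, replicate 2, limma also called 0 of them, and 0 had an unadjusted p below 0.05, against 27.2% of all genes. With all arrays 5 were higher and 7 lower on both IL-7 arrays than on both ex vivo arrays, patterns that 35.4% and 22.6% of all genes tested showed. Of 27 translation factors, 1 rose, Eef2k (1.08 ± 0.30), the kinase that inhibits elongation factor 2. It did not pass with any single array left out (adjusted p up to 0.157).

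Most energy metabolism and proliferation genes did not pass the test, as did most genes, of which 12.8% passed. The shares past it were 15.8% for glucose transport and glycolysis, 5.08% for the respiratory chain and 17.9% for the cell cycle list. Of 19 genes of glucose transport and glycolysis, 1 rose (Aldoc, 1.23 ± 0.27) and 2 fell: Pfkp, a phosphofructokinase (-1.14 ± 0.25), and Slc16a1, a lactate transporter (-2.11 ± 0.52). The glucose transporter gene Slc2a1 had values of 10.01 and 10.49 ex vivo and 8.77 and 9.14 in IL-7 (-1.30 ± 0.43, adjusted p = 0.0647). Slc2a1 passed the test without memory in medium, replicate 2. Hexokinase 2, Hk2, had 8.15 and 8.57 ex vivo and 7.01 and 8.41 in IL-7 (adjusted p = 0.664). Of 59 respiratory chain and ATP synthase genes, 3 rose (Ndufs7, Ndufb9 and Ndufv2, all of complex I, by 1.13, 1.05 and 0.96) and 0 fell. Of 39 cell cycle genes, 2 rose and 5 fell. Cdk6 (2.06 ± 0.60) and Cdk4 (1.13 ± 0.22), kinases of early G1, rose. Ccne2, Aurka, Cdc6, Pcna and Mcm3, genes of S phase and mitosis, fell by 2.46, 2.01, 1.5, 1.07 and 0.75. The proliferation marker Mki67 stayed below the filter value on all 4 arrays, with 3.74 and 3.31 ex vivo and 3.64 and 3.49 in IL-7. With single arrays left out, 4, 0, 1 and 0 of the 7 cell cycle genes passed; the adjusted p-values reached 0.367 for those 7, 0.129 for the 3 glycolysis genes and 0.265 for the 3 respiratory chain genes. Cdk6 and Aldoc each have a further probe set with a change of -0.09 and -0.06.

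The Cdk4 promoter is shown as an example of the E-box CACGTG, the letters bound by MYC and related factors, which 9.38% of promoters of all genes tested, 13% of promoters of genes that rose and 10.8% of those of genes that fell held. It runs over the 180 bases before the RefSeq start (chr10:127063355-127063534, plus strand, GRCm38.p6), with its 4 matches in capitals, beginning at -172, -118, -98 and -11.
Cdk4: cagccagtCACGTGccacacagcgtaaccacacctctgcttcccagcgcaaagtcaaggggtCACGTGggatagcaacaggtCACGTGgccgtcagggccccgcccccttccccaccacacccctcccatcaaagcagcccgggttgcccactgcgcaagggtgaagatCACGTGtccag
In the ribosome biogenesis list 25% of 36 promoters held CACGTG, in the tRNA synthetase list 4 of 12 did, in the cholesterol list 4 of 17 (23.5%), and in the immediate early list, most of whose called members fell, 9 of 37 (24.3%). The motif CCGGAAGT, bound by ETS factors, was held by 11.1% of promoters of genes that rose, 4.62% of those of genes that fell and 7% of all.

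Of 19 genes of cholesterol synthesis and uptake, 9 rose, 1 fell and 9 did not pass the test, with a median of 0.60. Mvd, the mevalonate decarboxylase, had values of 6.69 and 7.16 ex vivo and 8.70 and 8.83 in IL-7, a rise of 1.84 ± 0.24 (adjusted p = 0.00119). Msmo1 (1.33), Fdft1 (1.29), the squalene synthase, Sqle (1.03), the squalene epoxidase, Tm7sf2 (0.94) and Ebp (0.84) act after it in the pathway. Insig1, which retains the sterol sensor in the endoplasmic reticulum, fell by 1.05 ± 0.28.

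In the list of fatty acid synthesis and sterol export, Abca1, the cholesterol exporter, had values of 8.06 and 7.88 ex vivo and 4.90 and 4.36 in IL-7, a fall of -3.35 ± 0.30 (adjusted p = 6.92e-05). Abcg1, a second sterol exporter, fell by 1.66 ± 0.28, and Mylip, a ubiquitin ligase gene, by 1.47 ± 0.32; all 3 are known targets of the oxysterol receptor LXR. Scd2, a fatty acid desaturase, fell by 1.74 ± 0.32 and Fads1 rose by 1.08 ± 0.27, so of its 16 genes 1 rose, 4 fell and 11 did not pass the test. Of the 10 cholesterol genes past the test, 5, 3, 3 and 2 passed with single arrays left out, and Mvd passed each time, with adjusted p-values of the others up to 0.299. Abca1 was the only one of the 5 in the other list to pass each time, and the others reached 0.129. Scd2 and Fdft1 have further probe sets with changes near 0.

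Immediate early genes, which are transcribed within minutes of stimulation and whose transcripts are short-lived, held the largest fall. Of 34 tested, 15 fell and 1 rose, with a median of -1.48. Fosl2, an AP-1 subunit gene, had values of 13.14 and 12.93 ex vivo and 6.5 and 7.44 in IL-7, a change of -6.07 ± 1.31 (adjusted p = 0.0109). A further probe set of Fosl2 changed by -1.22. Klf4, a transcription factor that restrains T cell division, had 12.30 and 12.01 ex vivo and 6.09 and 6.30 in IL-7 (-5.96 ± 0.83, adjusted p = 0.00144). Fosb had 11.30 and 10.65 ex vivo and 4.98 and 5.96 in IL-7, a change of -5.51 ± 0.95. Fos changed by -2.64 ± 0.63 from 13.70 and 12.93. Jun had values of 11.76 and 11.08 ex vivo and 11.25 and 11.63 in IL-7.

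Members that respond to the T cell receptor were uneven between the IL-7 arrays. Nr4a1 had values of 12.35 and 11.84 ex vivo and 6.88 and 9.62 in IL-7 (-3.85 ± 1.59, adjusted p = 0.132), and Egr1 had 13.33 and 12.64 ex vivo and 10.29 and 12.05 in IL-7 (-1.81 ± 0.95, adjusted p = 0.246). Without memory in medium, replicate 2, Nr4a1 passed the test and Egr1 did not. Nr4a3 fell from 13.37 and 13.68 to 6.82 and 9.74 (adjusted p = 0.036). Cd69, an early activation marker, had 10.50 and 10.84 ex vivo and 8.87 and 10.46 in IL-7 (adjusted p = 0.376). IL-7 array 2 was the higher of the pair in all 4 genes. It was also higher for Cd44 (3.43 and 6.26), Eomes (4.83 and 7.16) and Tbx21 (3.0 and 5.48), which mark memory or effector CD8 T cells. Of the 11 memory CD8 T cell markers, 6 were higher on IL-7 array 2 than on IL-7 array 1, each by more than 0.5 (Cd44, Il2rb, Cxcr3, Ccl5, Eomes and Ifng). The others, Klrd1, S100a4, Gzmk, Klrk1 and Fasl, were lower on it. Naive cells in both cytokines had the same order of arrays 1 and 2 for Egr1 (10.11 and 12.99), Cd69 (8.25 and 10.84), Cd44 (3.49 and 7.71) and Eomes (7.32 and 9.03). The part of memory or effector cells in these values was not tested. The summed markers were 11.2 on IL-7 array 1 and 11.1 on IL-7 array 2, and in that sum Klrd1, with 10.94 and 10.52, had the highest values. Ier3, a stress-induced survival gene, was the member that rose (1.32 ± 0.36, adjusted p = 0.0295).

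Many feedback regulators of signalling fell too. Of 28 tested members of a list of dual specificity phosphatase, RGS, GADD45, Spry and Spred genes, 11 fell and 1 rose. The list median was -0.53, and Spred1 and Spred2 were among the members that fell. Rgs2, a regulator of G protein signalling, had values of 12.15 and 11.99 ex vivo and 7.13 and 7.45 in IL-7 (-4.78 ± 0.71, adjusted p = 0.002). Dusp10, a phosphatase of JNK and p38, had 12.50 and 12.23 ex vivo and 8.20 and 7.98 in IL-7 (-4.28 ± 0.75, adjusted p = 0.00414). Dusp4, Gadd45a, Dusp6 and Dusp1 changed by -3.91, -2.59, -2.18 and -1.65, and Rgs19 rose by 1.35. Tnfaip3, the NF-kB inhibitor A20, had 13.39 and 13.18 ex vivo and 10.51 and 9.87 in IL-7 (-3.09 ± 0.46, adjusted p = 0.00198). Of 18 NF-kB genes 2 fell (Tnfaip3 and Rel) and 1 rose (Traf1), a share of 16.7% against 12.8% of all genes tested.

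Of the 16 immediate early genes past the test, 4, 4, 4 and 3 passed with single arrays left out, and Fosb, Klf4 and Rgs2 passed each time; adjusted p-values of the others, Fosl2 and Fos among them, reached 0.237. Of the 12 called genes of the phosphatase, RGS, GADD45, Spry and Spred list, Dusp10 and Rgs2 passed each time, and the others did not. Tnfaip3 passed each time, and Rel and Traf1 reached 0.175.

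Memory cells cultured without cytokine had low values of the same genes on 1 of their 2 arrays. Replicate 1 had 6.09 for Fosl2, 8.68 for Klf4 and 7.76 for Fosb, against ranges of 12.39 to 13.06, 12.25 to 13.15 and 11.23 to 12.04 on the 4 ex vivo memory arrays. The median change of the immediate early list in memory cells was -2.82 in IL-7, -2.45 on medium array 1 and -0.23 on medium array 2. Fosl2 had 12.51 on medium array 2. Such gaps between the medium arrays entered the spread of these genes, also in the fits with single naive arrays left out. Their part in the misses of those fits was not tested.

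The Dusp1 promoter is shown as an example of the cyclic AMP response element TGACGTCA, which 5.71% of promoters of genes that fell held, against 2.21% of those of genes that rose and 2.78% of all. The stretch is the 180 bases before the RefSeq start (chr17:26508473-26508652, minus strand, GRCm38.p6), and its 1 match, in capitals, begins at -143.
Dusp1: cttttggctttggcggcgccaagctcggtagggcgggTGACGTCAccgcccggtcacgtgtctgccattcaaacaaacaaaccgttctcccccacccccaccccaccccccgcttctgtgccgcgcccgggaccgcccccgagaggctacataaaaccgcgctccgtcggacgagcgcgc
Of 37 promoters of the immediate early list, 4 held TGACGTCA. The AP-1 letters TGANTCA were held by 5.37% of promoters of genes that rose, 5.83% of those of genes that fell and 5.45% of all, and the forkhead letters TGTTTAC by 2.11%, 4.01% and 2.83%. All 6 motifs were searched on both strands, no motif contains another, and genes with several RefSeq starts count several times.

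The 15 largest falls also held genes outside these lists. Ramp3, a partner of calcitonin-family receptors, had values of 11.29 and 11.96 ex vivo and 5.10 and 6.24 in IL-7 (-5.96 ± 1.19, adjusted p = 0.00772). Frmd4b, a scaffold protein gene, had 9.67 and 9.86 ex vivo and 3.06 and 5.49 in IL-7. Lmna, the lamin A gene, changed by -4.33, Apol8 by -4.25, Sik1, a kinase induced by cyclic AMP, by -3.99 and Coq10b, of coenzyme Q, by -3.73. Other probe sets of Lmna changed by between -2.38 and 0.11. Myb, a transcription factor of lymphocyte precursors and of stem-like T cells, had 12.81 and 12.76 ex vivo and 8.38 and 9.94 in IL-7 (-3.62 ± 0.56, adjusted p = 0.00234). With each single array left out, Dusp10, Fosb, Klf4, Myb and Rgs2 passed each time and the other 10 of the 15 did not, with adjusted p-values up to 0.239. Over all genes, 27 of those that fell had an IL-7 mean at or below the filter value.

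Most stress and rhythm genes fell or did not pass the test. Of 20 heat shock genes, 5 fell (Bag3, Hspa4l, Dnajb4, Dnajb6 and Hsp90aa1, by 1.96 to 1.15) and 0 rose. Other probe sets of Dnajb6 changed by between -1.92 and 0.58. Hspa5, the chaperone BiP of the endoplasmic reticulum, had values of 13.69 and 13.56 ex vivo and 11.93 and 12.13 in IL-7 (-1.59 ± 0.39, adjusted p = 0.0191), and Dnajb9, its cochaperone, fell by 2.22 ± 0.39. Other probe sets of Hspa5 changed by -2.32 and -0.27. Sdf2l1 rose by 0.99, so of 21 genes of the unfolded protein response 1 rose and 2 fell. Their share past the test was 14.3%, near the 12.8% of all genes tested. Of 11 glucocorticoid-induced genes, 5 fell (Cxcr4, Per1, Dusp1, Tsc22d3 and Nr3c1, the receptor itself, by 2.55, 2.37, 1.65, 1.19 and 0.80) and 0 rose, with a median of -1.19. Of 16 clock genes, Nfil3, Per2, Per1 and Nr1d2 fell by 2.69, 2.37, 2.37 and 1.25 and Dbp rose by 1.35. Of 21 autophagy genes 6 fell, Gabarapl1 (-1.98) furthest, and 0 rose. Not one of the 5 heat shock, 5 glucocorticoid-induced, 5 clock or 6 autophagy genes passed without each array in turn, with adjusted p-values up to 0.268, 0.187, 0.192 and 0.248, while Dnajb9 passed each time and Hspa5 and Sdf2l1 reached 0.265.

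Many interferon-stimulated genes fell. Of 35 tested, 14 fell and 1 rose, with a median of -1.0. Rsad2, the antiviral enzyme viperin, had values of 9.64 and 10.76 ex vivo and 6.73 and 6.93 in IL-7, a change of -3.36 ± 0.71 (adjusted p = 0.00985). Cmpk2, a nucleotide kinase encoded beside it, had 7.10 and 8.33 ex vivo and 4.74 and 4.53 in IL-7 (-3.08 ± 0.41, adjusted p = 0.0013). Irf7, a transcription factor of the interferon response, had 8.89 and 9.88 ex vivo and 7.54 and 7.90 in IL-7. Oasl2, Mx1 and Oas2 changed by -2.14, -1.75 and -1.71. Ex vivo array 2 was the higher of its pair in each of these 6 genes. Ifi35 rose by 0.60 ± 0.15. With single arrays left out, 11, 2, 4 and 3 of the 15 passed; Cmpk2 and Oas3 passed each time, and the adjusted p of the others, Rsad2 included, reached 0.371.

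In related families, 17.6% of MHC class I pathway, 16.7% of Schlafen and 6.45% of proteasome genes passed, against 12.8% of all genes tested. Of 17 MHC class I pathway genes, Psmb8, an immunoproteasome subunit, rose by 0.87 ± 0.21, the class Ib gene H2-M3 rose by 0.77 ± 0.22, and Nlrc5, the class I transactivator, fell by 0.93 ± 0.19, with a median of 0.02. Slfn1, a Schlafen gene tied to growth arrest of thymocytes, rose from 6.62 and 6.43 to 8.69 and 8.65 (2.15 ± 0.50, adjusted p = 0.0153), and the other 5 Schlafen genes did not pass. Not one of these 4 genes passed without each array in turn (adjusted p up to 0.185). Of 31 proteasome subunits, Psmb5 (0.91) and Psmd13 (0.75) rose and 0 fell, and neither passed without each array in turn (adjusted p up to 0.136).

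Transcription factors of the naive state fell or did not pass the test. Of 20 tested, 6 fell and 0 rose: Myb, Tox (-1.92 ± 0.30), Sox4 (-1.89), Ikzf2 (-1.44), Satb1 (-1.09 ± 0.19) and Zeb1 (-0.86). Lef1, of the WNT pathway, had 11.51 and 11.28 ex vivo and 11.71 and 11.34 in IL-7, and Klf2, of homing and quiescence, had 11.58 and 11.59 ex vivo and 12.33 and 11.71 in IL-7 (adjusted p = 0.333). Of 15 effector and memory factors, Maf fell from 7.81 and 7.21 to 4.80 and 5.42 (-2.40 ± 0.34, adjusted p = 0.00155), Rora fell by 1.38 and Runx3, a factor of CD8 identity, rose by 0.69 ± 0.17. Tox, Myb and Maf passed without each array in turn, and the other 6 of these 9 reached adjusted p-values of 0.306.

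Quiescence genes and FOXO targets gave 7 falls and 0 rises of 24 tested. Tob1, an antiproliferative gene, fell from 11.03 and 11.60 to 9.33 and 9.14 (-2.08 ± 0.24, adjusted p = 0.000435), although a further probe set changed by 0.06. Tob2 fell by 2.96, Tsc22d3 by 1.19 and Ccng2 by 0.99, besides Klf4 and Bcl6; Btg1 was the seventh. Txnip, an inhibitor of glucose uptake, had 12.52 and 12.60 ex vivo and 12.55 and 12.29 in IL-7. S1pr1, the receptor for lymph node exit, changed by -0.60 ± 0.38 (adjusted p = 0.35) and Ccr7, the lymph node homing receptor, by -0.47 ± 0.48 (adjusted p = 0.604). Tob1 and Klf4 passed without each array in turn, and the other 5 reached 0.224.

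Of 29 homing and adhesion genes, Itgb3, the integrin beta 3 chain, rose from 9.61 and 8.54 to 11.19 and 10.70 (1.87 ± 0.30, adjusted p = 0.00291), and Cxcr4 (-2.55), Itgae (-2.15), Gpr183 (-1.73), Cxcr5 (-1.20) and Itgb2 (-1.04) fell. Of 28 costimulatory and inhibitory receptors, 3 rose and 5 fell. Nt5e, the ectoenzyme CD73, rose from 4.09 and 4.75 to 6.64 and 6.5 (2.14 ± 0.30, adjusted p = 0.00144). Its further probe sets changed by 0.15 and 0.09. Tnfrsf25 (DR3) rose by 2.12 ± 0.44 and Tnfrsf18 (GITR) by 1.59 ± 0.26. Cd28, the main costimulatory receptor, fell from 11.66 and 11.28 to 8.84 and 9.39 (-2.35 ± 0.43), and Ctla4 (-2.23 ± 0.39), Cd86 (-1.76), Icos (-1.53) and Cd96 (-0.80) fell too.

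Of 24 genes of the T cell receptor complex tested, 0 rose and 2 fell (Ptpn22, -1.13, and Cd6, -1.02). That is 8.33%, against 12.8% of all genes tested. Cd8a had values of 12.47 and 12.14 ex vivo and 13.10 and 12.75 in IL-7 (0.62 ± 0.23, adjusted p = 0.0995) and Cd8b1 12.52 and 12.29 against 12.74 and 12.77 (adjusted p = 0.222). Cd8a passed without memory in medium, replicate 2, and Cd8b1 did not. Cd28, Ctla4, Tnfrsf18, Cd86, Nt5e and Itgb3 passed without each array in turn. Adjusted p-values reached 0.147 for the other homing genes, 0.298 for the other costimulatory genes and 0.147 for Ptpn22 and Cd6.

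Effector genes showed no common direction, and 18.2% of them passed the test, against 12.8% of all genes tested. Of 22 tested, Lta and Ltb (lymphotoxin beta, 1.25 ± 0.30) rose and Gzma (granzyme A, -2.53 ± 0.64) and Srgn (serglycin, -1.27 ± 0.20) fell. Ifng had values of 4.28 and 3.81 ex vivo and 3.29 and 5.03 in IL-7, and Gzmb 4.83 and 5.05 against 4.95 and 6.26, with adjusted p-values of 0.937 and 0.62. Gzma and Ltb did not pass without each array in turn (adjusted p up to 0.131). By limma, 0 of 11 NK-type receptor and adaptor genes passed, 1 had an unadjusted p below 0.05, and 1 passed without memory in medium, replicate 2; Klrk1 lay near the filter value on all 4 arrays (3.91 to 4.21). Of 21 cytoskeletal and S100 genes typical of memory cells, Capg (2.45) and Plp2 (1.66 ± 0.26) rose and Lmna, Ahnak (-1.67) and Anxa5 (-1.12) fell, and of these Plp2 passed without each array in turn while the other 4 reached 0.239.

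Smaller counts were found in 3 further lists. The shares past the test were 17.4% for p53 targets, 5.26% for oxidative stress and 6.67% for hypoxia, against 12.8% of all genes tested. Of 23 p53 target genes, Aen (1.33) and Rrm2b (1.13) rose and Gadd45a and Plk2 (-1.80) fell. A further probe set of Plk2 changed by 0.22. Of 19 oxidative stress genes, 1 fell, Sqstm1 (-0.76 ± 0.19), the autophagy adaptor p62. Of 15 hypoxia-responsive genes, 1 fell, the oxygen sensor Egln3 (-1.39 ± 0.33). The respective adjusted p without a single array reached 0.255, 0.134 and 0.143.

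**Figure D3:**
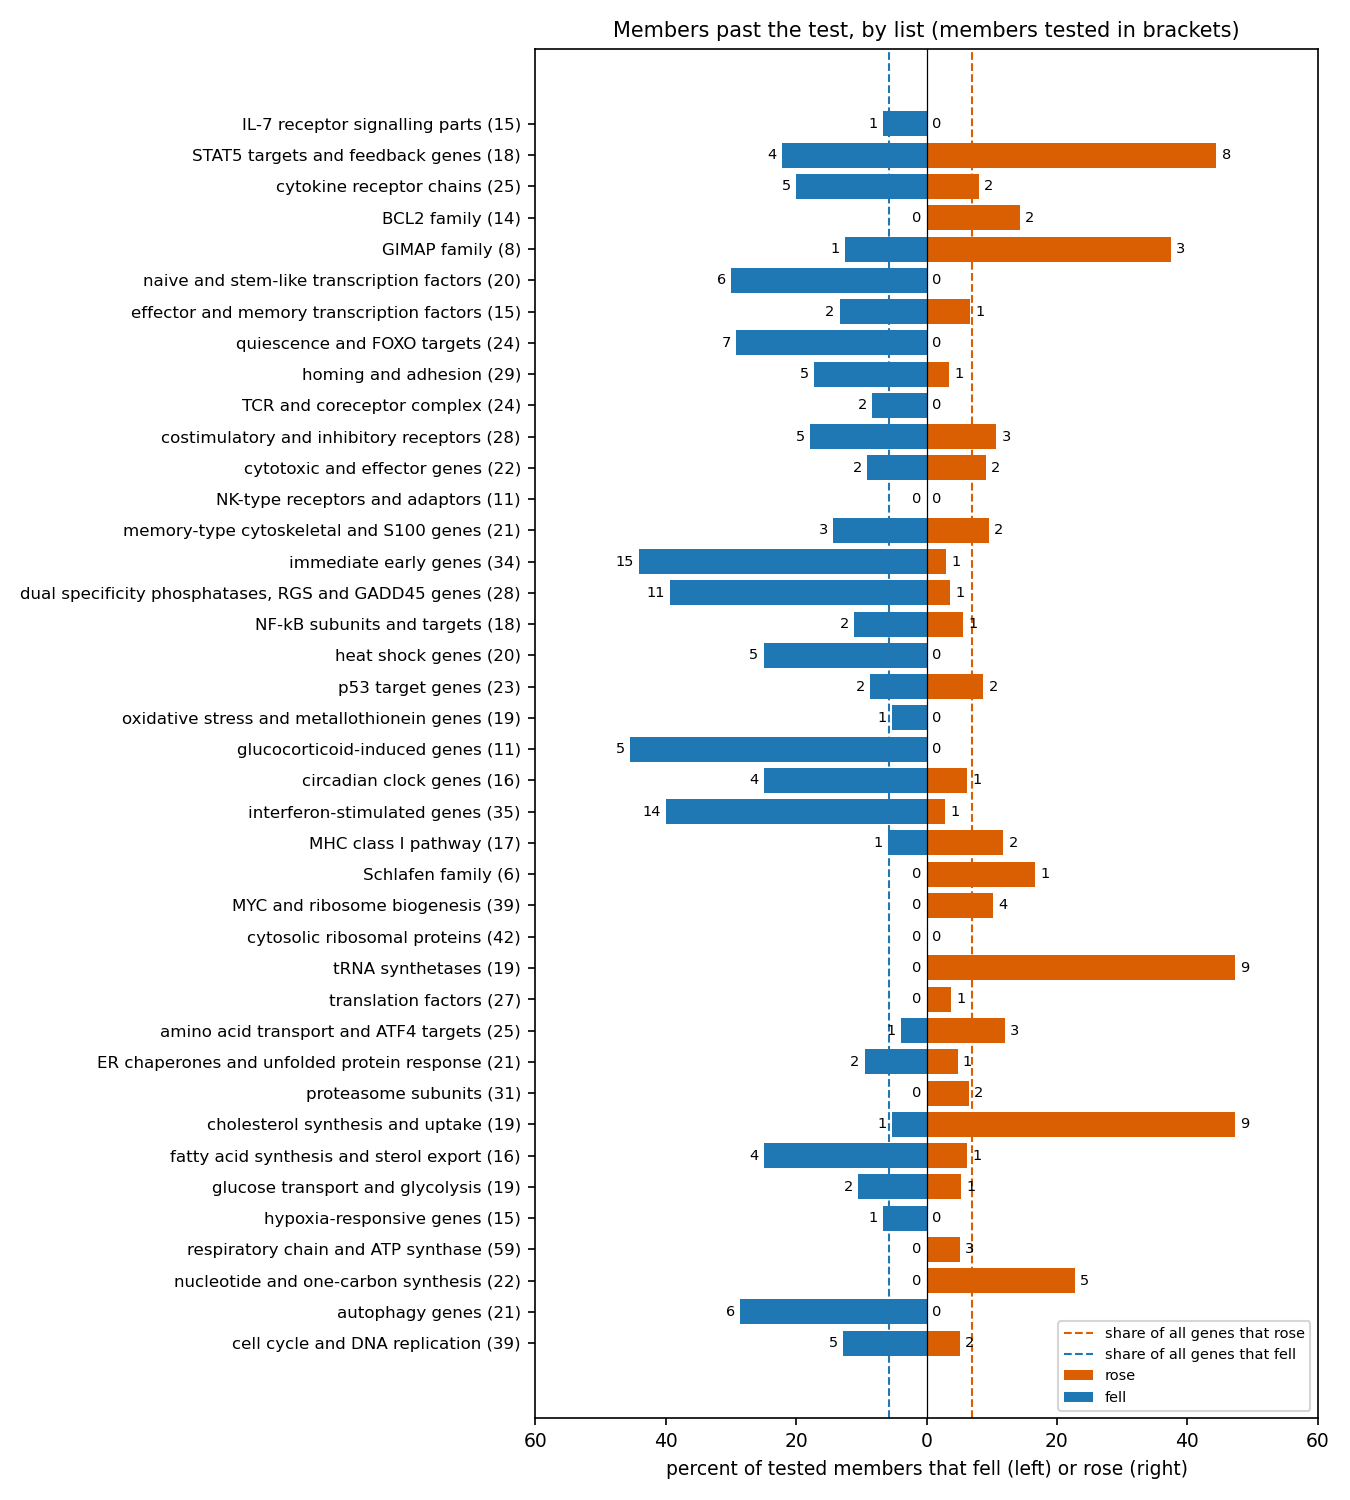
Percent of the tested members of 40 gene lists that fell (blue, to the left) or rose (orange, to the right) in IL-7, with the number of genes at each bar and the number tested in brackets. Dashed lines mark the shares of all genes tested, 7% that rose and 5.8% that fell; tRNA synthetases and cholesterol synthesis (9 of 19 each) extend furthest to the right, and glucocorticoid-induced (5 of 11) and immediate early genes (15 of 34) furthest to the left.

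Naive and memory cells were then compared for their change from ex vivo to IL-7, with a test of the difference of the changes; the groups share no array. Of the 1762 genes past the test in naive cells, 1621 (92%) had a memory change of the same sign, against 66% of all genes tested. Of the 1762, 927 passed in memory cells with the same sign and 6 with the other, where 19.9% of all genes tested passed. The difference passed the test for 7 of 13770 genes (0.0508%), and 6 of them changed by more in the positive direction in naive cells. These were Ecm1, D630039A03Rik, Lta, Pde5a, Olfml3 and Pum3, and the seventh was Xdh.

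Ecm1 changed by 3.62 in naive cells and -0.35 in memory cells, a difference of 3.97 (adjusted p = 9.35e-05). On memory arrays it lay between 5.90 and 6.68 ex vivo and at 6.05 and 6.15 in IL-7. Lta changed by 3.84 in naive and 0.04 in memory cells, where it lay between 5.61 and 6.10 ex vivo and at 6.32 and 5.53 in IL-7 (difference 3.79, adjusted p = 0.00729). The IL-7 arrays of naive cells lay above every ex vivo and IL-7 array of memory cells. D630039A03Rik differed by 3.83, Pde5a, a cyclic GMP phosphodiesterase, by 2.37 and Olfml3, a secreted protein gene, by 2.33. Pum3, a nucleolar RNA-binding protein gene, changed by 0.64 in naive and -0.54 in memory cells. Xdh, the xanthine dehydrogenase, had values of 6.75 and 7.05 ex vivo and 5.10 and 5.5 in IL-7 in naive cells, against 6.86 to 7.06 ex vivo and 7.15 and 7.36 in IL-7 in memory cells. Its naive change was lower by 1.91. Of 3 Pde5a probe sets, the others changed by 1.0 and -0.06 in naive cells.

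With single naive arrays left out, the difference passed for 6, 2, 14 and 5 genes. Without memory in medium, replicate 2, the difference passed the test for 127 genes (0.922%), with a positive naive minus memory difference for 77 and a negative one for 50, with all 7 among them. Cish then passed (difference 3.85 ± 0.53, adjusted p = 0.00525, against 0.0972 with all arrays): it changed by 2.13 in naive cells and by -1.72 in memory cells, from values of 8.55 to 9.06 ex vivo to 7.49 and 6.62 in IL-7. Socs2 (difference 2.86), Myc (2.31) and Pim3 (0.99) passed as well, so 5 of the 18 STAT5 list members did. The signed difference, naive minus memory, was positive for all 5, although Pim3 changed by -1.40 in naive and -2.38 in memory cells. Il7r passed in the other direction, with changes of -0.44 in naive and 1.01 in memory cells (difference -1.45 ± 0.26, adjusted p = 0.022). Memory in medium, replicate 1, had an Il7r value of 13.41, close to the 13.26 and 13.33 of memory cells in IL-7.

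Members of the biosynthesis lists differed as well. Srm and Odc1, named here with the nucleotide and one-carbon list, are polyamine genes in it. Without that array, 7 of 22 nucleotide and one-carbon genes differed, among them Srm (1.65 in naive and -1.04 in memory cells), Shmt2 (1.38 and -0.92), Odc1 (-0.74 and -2.50) and Ctps (-0.15 and -1.74). So did 6 of 39 ribosome biogenesis genes, 4 of 25 amino acid and ATF4 genes, including the transporter gene Slc7a5 (0.52 and -2.50), and the tRNA synthetases Iars, Mars1 and Sars. The signed difference was positive for all of these, which for genes such as Odc1 and Ctps means a change further below 0 in memory cells. In the effector list Gzmb, Tnf, Fasl and Lta differed, Gzmb with 0.67 in naive and -2.83 in memory cells and Fasl with -0.80 and -3.74. Ex vivo means were 4.94 in naive and 7.08 in memory cells for Gzmb, and 4.61 and 9.35 for Fasl. These naive means lay not far above the filter value of 4.06, so a fall like that in memory cells could hardly show. The list medians in memory cells were -0.65 for nucleotide and one-carbon synthesis, -0.66 for ribosome biogenesis and -0.26 for tRNA synthetases, against 0.24, 0.10 and 0.71 in naive cells. Interferon-stimulated genes had a memory median of -0.46 against -1.0. Ifit2 was the only member that differed, in the negative direction, with changes of 0.19 in naive and 2.22 in memory cells.

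**Figure D4:**
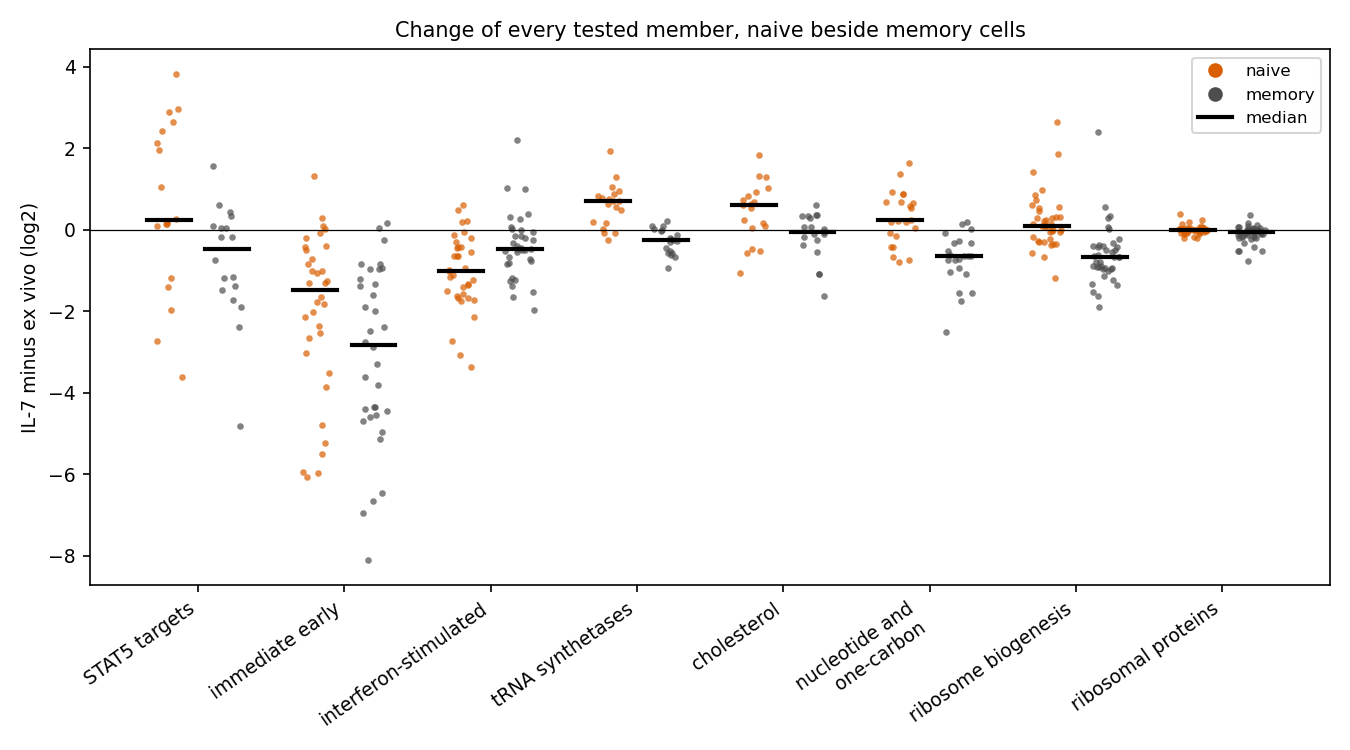
Change from ex vivo to IL-7 (log2) of every tested member of 8 gene lists, 1 point a gene, in naive cells (orange) and memory cells (grey), with black lines for medians. The tRNA synthetase median is 0.71 in naive and -0.26 in memory cells, the immediate early median -1.48 and -2.82, and ribosomal protein genes lie near 0 in both.

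**Figure D5:**
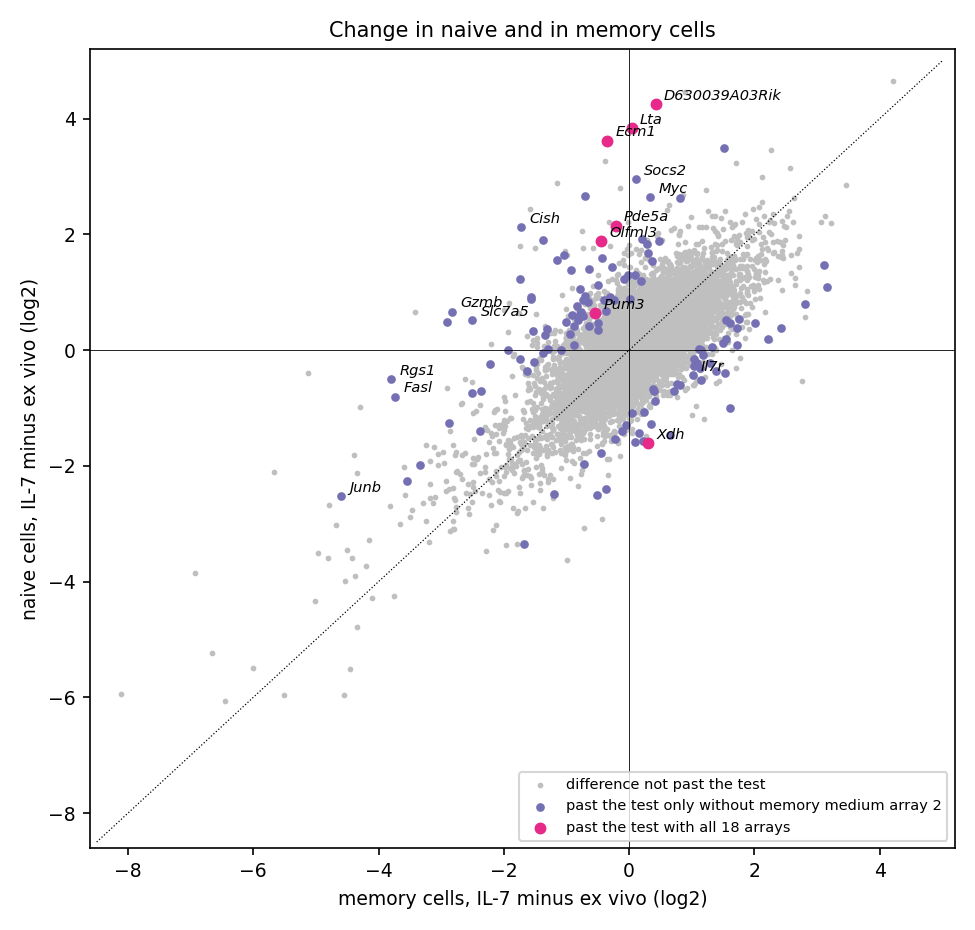
Change from ex vivo to IL-7 (log2) of 13770 genes in naive cells (vertical axis) against memory cells (horizontal axis), with a dotted line where both are equal. Pink points are the 7 genes whose difference passed the test with all 18 arrays and violet points those that passed only without memory in medium, replicate 2; Ecm1, D630039A03Rik and Lta stand above the line near 0 on the memory axis, and Xdh stands below it.

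Naive cells with IL-4 added to IL-7 share the ex vivo arrays with the comparison above, so their changes are given beside it and not set against it. Lta changed by 3.84 in IL-7 and 2.73 in both cytokines, Cish by 2.13 and 2.77, Bcl2 by 2.42 and 2.43, Myc by 2.64 and 2.17, and Fosl2 by -6.07 and -6.16. Values lay further apart for Ecm1 (3.62 and 0.04), Bcl6 (-2.73 and -0.28), Dusp10 (-4.28 and -0.26), Frmd4b (-5.49 and 0.60) and Irf7 (-1.67 and 0.38). The list medians were 0.71 in both for tRNA synthetases, 0.60 and 0.78 for cholesterol synthesis, and -1.0 and 0.06 for interferon-stimulated genes.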

How the data were processed

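RNA of sorted cells was linearly amplified and biotin-labelled for Affymetrix arrays, per the labels' protocols. The deposited values are log2 values made by the authors with RMA, which corrects background and normalises between arrays, per the submitters' processing notes, which name RMA and limma without versions. Quantile normalisation of this kind can hide a shift shared by most genes, so changes are relative to the other genes on an array.

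From these values, probe sets with 1 gene symbol were kept (34958 of 45101), and the probe set with the highest mean over 18 arrays stood for each of 18194 genes. Genes above the 40th percentile (4.06) on at least 2 arrays were tested, 13770 in all. The model, in limma 3.58.1 under R 4.3.3, covered all 18 arrays and 8 groups without a replicate block, with two-sided moderated tests (10 residual and 4.13 prior degrees of freedom) and Benjamini-Hochberg adjustment over all genes tested, and genes were called at an adjusted p below 0.05. The scripts were tested on simulated data. The number of arrays limits the precision.

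Named genes were the 15 largest rises and falls, up to 6 members of a list in each direction, up to 8 genes each way of the naive against memory difference, and a set of IL-7, naive and effector genes named whether or not they passed; a few other members complete a count and were named after their values were seen. The genes, the 40 lists and the motifs were chosen with earlier results of these data known. Lists are described by counts and medians and were not tested. Of 104 named genes past the test with several probe sets, 86 had changes of 1 sign in all of them. The other 18 had a probe set of the other sign, among them Dnajb6 (0.58), Plk2 (0.22) and Ahnak (0.06). Promoters came from RefSeq (GRCm38.p6), used by symbol for 11073 of the 13770 genes. Alternatives were the filter, the choice of probe set, centring of arrays, the arrays in the fit, array weights, an intensity trend, a replicate block and leaving out arrays.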

Additional observations from a re-analysis of the deposited data

Results flagged for a closer look

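The change from ex vivo to IL-7 differed between naive and memory cells, by limma's test of the difference, for Ecm1 (naive minus memory 3.97 on the log2 scale), D630039A03Rik (3.83), Lta (3.79), Pde5a (2.37), Olfml3 (2.33), Pum3 (1.19) and Xdh (-1.91). Among the 4 ex vivo memory arrays, Ecm1 was lower on array 2 (5.90) than on the other 3 (6.57 to 6.68). That gap was 0.855 of the range, above Dixon's critical value for 4 samples, which chance passes in about 1 of 20 groups. Probe sets to which the annotation gave no gene name entered no test above. Fitted with all probe sets, 255 of 4635 such probe sets passed the test between naive cells in IL-7 and ex vivo, 111 higher and 144 lower, or 5.5% against 9.41% of all probe sets tested.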

How the results depend on the processing

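The count of 1762 genes moved by over 1.5 times in these settings. Without memory in medium, replicate 2, it was 2772 (1678 up and 1094 down), and with array weights 3065 (1866 up and 1199 down). Leaving out 1 of the 4 naive arrays gave 258 to 796 genes, 96 to 392 up and 162 to 409 down; a group is then 1 array, assumed to vary like the others. For the naive against memory difference, the 7 genes became 127 without memory in medium, replicate 2, 276 with array weights, 16 with the mean of all probe sets, 13 with centring on ribosomal protein genes and 2 to 14 when a naive array was left out. The cause was not tested. The naive IL-7 and ex vivo arrays do not overlap in any gene past the test, so leaving out arrays cannot change a direction. Of 181 named genes past the test, 0 changed direction in any setting; 53 to 96 stayed past the test when a naive array was left out, and 140 to 181 in the other settings. Same-numbered naive arrays deviated together most for IL-7 and both cytokines (r = 0.511), and less for ex vivo and IL-7 (0.141). They did not for ex vivo and both cytokines (-0.125). The labels do not say whether equal numbers mark 1 source, and arrays were treated as independent. A shared source of same-numbered cultured arrays was not tested. With a replicate block, 1570 genes passed (775 up and 795 down), and 4 for the difference. Only 2 arrays a group limit these results, and no measured background tells which probe sets carry signal.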
